A study of Mus musculus with 16 samples.

Results

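The 9 genes examined here encode receptors and co-receptors known for signalling by the growth inhibitor Nogo-A, relatives of the Nogo receptor, and 1 further ligand of that receptor. They are Rtn4r, Rtn4rl2, Rtn4rl1, Pirb, S1pr2, Tspan3, Lingo1, Tnfrsf19 and Omg. They were chosen by name for their known roles, from the 25719 gene identifiers listed for each library. All 9 were present and all 9 passed the low-count filter, which left 15109 genes. Pirb and Omg passed it only through their P25 libraries, the stage at which they are high, so a test between stages adds nothing for them and they are described by their counts.

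RNA came from mouse trigeminal ganglia, 1 ganglion per library, in 4 groups of 4. The groups were wild-type (WT) and Nogo-A KO animals at embryonic day 14 (E14) and WT and Nogo-A KO animals at postnatal day 25 (P25). The labels name no treatment, strain, sex or knockout allele. Of the E14 libraries, WT replicates 2 and 4 carry the same number in their names with R and L, as do KO replicates 1 and 3, so these may be the right and left ganglia of 1 embryo although the labels state 4 animals per group.

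Nogo-A is the longest protein made from Rtn4 and is known for stopping neurite growth. A loop shared by all Nogo proteins binds the Nogo receptor NgR1, a lipid-anchored protein with no intracellular part, which signals to RhoA through a complex with LINGO-1 and either p75NTR (Ngfr) or TROY (Tnfrsf19). A separate stretch found only in Nogo-A binds the sphingosine-1-phosphate receptor encoded by S1pr2, with the tetraspanin encoded by Tspan3 as a co-receptor. NgR1 also binds the myelin proteins MAG and OMgp.

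Library totals ran from 15532373 to 29562379 counts, and levels are given as CPM, the usual depth-scaled counts, with totals scaled by the TMM method. Genes with an adjusted p under 0.05 in edgeR's quasi-likelihood test, fitted to all 16 libraries, are said to be called. Marker genes placed sensory neurons in every library: 12 neuronal markers summed to 14290 to 19130 CPM at E14 and 17220 to 20820 CPM at P25. E14 WT replicate 2 stood apart, being the highest of the 8 E14 libraries for 34.5% of tested genes and the lowest for 31.8%, where equal shares would be 12.5%. It was the highest of the 8 for 5 of the 9 genes, Rtn4r, Rtn4rl2, Rtn4rl1, S1pr2 and Lingo1. The targeted gene Rtn4 read 360 ± 164 CPM (SD, n = 4) in E14 WT, 298 ± 74.7 in E14 KO, 489 ± 58.7 in P25 WT and 368 ± 17.9 in P25 KO, none of which isolates the Nogo-A transcript, since the gene total includes Nogo-B and Nogo-C.

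Rtn4r, Rtn4rl2, Rtn4rl1 and S1pr2 fell between E14 and P25 in both genotypes, the ligand gene Omg and the myeloid receptor gene Pirb had higher counts at P25 in both, and no gene of the set was called between genotypes. In whole ganglia, fewer cells of a type and less RNA per cell cannot be told apart. To show what stands upstream of genes whose levels differed between stages in opposite directions, the promoter windows of 3 receptor genes that fell and of Pirb are printed here. Each is 232 bases long, read 5′ to 3′ on the gene's strand from RefSeq's table for GRCm38.p6, and ends 18 bases before RefSeq's transcript start. Capitals mark matches, on either strand, to the GC box GGGCGG or to GAGGAAGT, a site of the type bound by the myeloid factor PU.1. Adjoining GC boxes can share a base.
Rtn4r: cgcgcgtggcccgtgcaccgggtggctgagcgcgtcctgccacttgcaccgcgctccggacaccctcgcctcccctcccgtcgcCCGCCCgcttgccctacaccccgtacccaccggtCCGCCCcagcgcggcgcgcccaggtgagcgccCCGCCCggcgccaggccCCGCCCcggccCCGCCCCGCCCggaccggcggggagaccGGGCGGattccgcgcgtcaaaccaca
Rtn4rl2: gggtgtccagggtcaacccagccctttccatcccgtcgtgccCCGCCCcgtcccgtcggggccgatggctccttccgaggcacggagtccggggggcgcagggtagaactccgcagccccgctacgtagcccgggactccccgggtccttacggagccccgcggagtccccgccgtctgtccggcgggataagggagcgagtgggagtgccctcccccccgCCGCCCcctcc
S1pr2: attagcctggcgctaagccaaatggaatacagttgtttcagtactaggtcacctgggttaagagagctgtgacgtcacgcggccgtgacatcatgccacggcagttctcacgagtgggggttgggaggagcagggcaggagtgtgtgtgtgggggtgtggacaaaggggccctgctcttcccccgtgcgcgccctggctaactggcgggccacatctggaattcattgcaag
Pirb: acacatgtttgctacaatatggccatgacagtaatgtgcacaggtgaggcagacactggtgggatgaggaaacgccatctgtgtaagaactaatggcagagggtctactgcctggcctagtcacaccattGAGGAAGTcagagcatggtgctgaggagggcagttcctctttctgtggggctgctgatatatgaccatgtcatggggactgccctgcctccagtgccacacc
The windows lie at chr16:18127392-18127623 on the plus strand, and at chr2:84886711-84886942, chr9:20976812-20977043 and chr7:3720401-3720632 on the minus strand. The Rtn4r window held 7 GC boxes and 38 CpG dinucleotides, and the Rtn4rl2 window held 2 GC boxes and 26 CpG dinucleotides. S1pr2 had 0 GC boxes and 11 CpG dinucleotides, and Pirb had 0 GC boxes, 1 CpG dinucleotide and 1 GAGGAAGT. Over all 32851 windows of this length the median was 5 CpG dinucleotides, 30.1% held a GC box and 2.18% held GAGGAAGT. The TATA box TATAAA was in none of the 4 windows and in 11.9% of all windows. The Rtn4rl2 window adjoins a transcript model of 1263 bases with 3 untranslated ones. It may therefore hold transcribed untranslated sequence, and its counts may not describe a promoter. RefSeq's table held 7 of the 9 genes. The 4 windows were picked from these, and those of Lingo1, Tnfrsf19 and Tspan3 are not shown. Pirb is the only gene shown that was higher at P25, so the windows cannot show a contrast between directions. These matches describe letters only.

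Rtn4r encodes NgR1 and lies on GRCm38 chromosome 16 from 18127642 to 18152408. In WT it stood at 25.0, 50.4, 26.7 and 21.8 CPM in the E14 ganglia and at 17.4, 12.7, 17.3 and 21.4 CPM in the P25 ganglia. In KO it stood at 31.2, 28.7, 27.0 and 28.2 CPM and then at 17.5, 18.6, 16.4 and 19.6 CPM. The P25 libraries all lay below all E14 libraries of the same genotype, although in WT the closest pair, 21.4 and 21.8 CPM, nearly met. The log2 fold change from E14 to P25 was -0.85 in WT (SE 0.23, edgeR adjusted p = 0.00314) and -0.68 in KO (SE 0.23, adjusted p = 0.0144). Without E14 WT replicate 2 the WT change was -0.51 (adjusted p = 0.00928).

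Rtn4rl2 encodes NgR2, a relative of NgR1 that binds MAG with high affinity. The gene is on chromosome 2 from 84871924 to 84886710. WT libraries read 63.5, 112, 61.9 and 52.2 CPM at E14 and 38.0, 27.8, 36.1 and 28.8 CPM at P25. KO libraries read 80.6, 61.6, 73.2 and 59.95 CPM at E14 and 43.1, 36.6, 40.2 and 31.2 CPM at P25. The stages did not overlap in either genotype. The log2 fold change was -1.14 in WT (95% interval -1.59 to -0.70, adjusted p = 0.000111) and -0.87 in KO (-1.31 to -0.42, adjusted p = 0.00151), and without E14 WT replicate 2 the WT change was -0.86.

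Rtn4rl1 encodes NgR3, the remaining member of this receptor family, known to bind chondroitin sulphate proteoglycans together with NgR1. The gene is on chromosome 11 from 75193783 to 75267769. WT libraries read 142, 229, 159 and 145 CPM at E14 and 91.2, 94.9, 99.4 and 89.3 CPM at P25, and KO libraries read 176, 182, 143 and 161 CPM and then 89.3, 85.1, 93.6 and 103 CPM. Here the stages lay far apart in both genotypes, the lowest E14 value of 142 CPM standing above the highest P25 value of 103 CPM. The log2 fold change was -0.85 in WT (SE 0.16, adjusted p = 0.000137) and -0.84 in KO (SE 0.16, adjusted p = 0.000159).

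**Figure D1:**
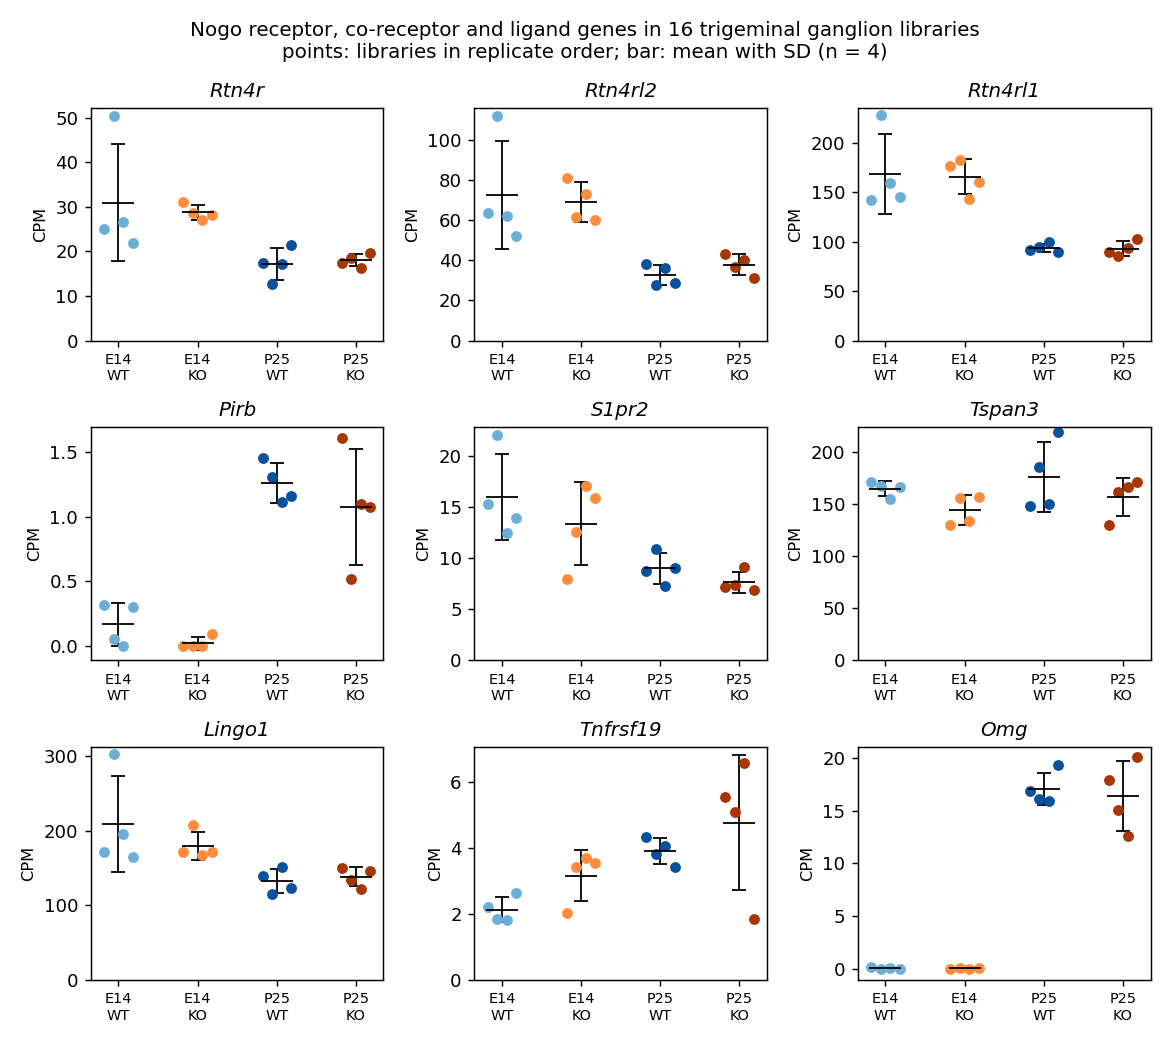
Levels of the 9 genes in CPM (vertical axes, each on its own scale) in the 4 groups (horizontal axis), with 1 point per library in replicate order and a bar for the mean with its SD (n = 4). Rtn4r, Rtn4rl2 and Rtn4rl1 are lower at P25 in both genotypes, Omg is near 0 at E14 and between 12.55 and 20.04 CPM at P25, and E14 WT replicate 2 is the high point of its group for 5 genes.

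Pirb encodes an inhibitory receptor of myeloid and B cells that also binds Nogo, MAG and OMgp, and it was near 0 at E14. Its position is chromosome 7 from 3711409 to 3720391. The E14 WT libraries held 7, 1, 0 and 7 counts and the E14 KO libraries 0, 0, 0 and 2 counts. At P25 the WT libraries held 36, 31, 31 and 30 counts (1.45, 1.31, 1.11 and 1.16 CPM) and the KO libraries 39, 12, 24 and 27 counts (1.61, 0.517, 1.10 and 1.07 CPM). No P25 library fell to the level of any E14 library. The scaled ratio of P25 to E14 counts was 6.56 in WT (exact 95% counting interval 3.83 to 12.1) and 40.7 in KO (10.97 to 340.3). The interval in KO is wide because its denominator is 2 counts, both from replicate 4, without which the E14 KO group is at 0. Pirb belongs to a family of near-identical receptors, so its estimated counts are less certain than their number shows. Of its relatives only Pira2 and Lilra6 were looked up, and they were at most 0.0876 and 0.179 CPM in any library.

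Macrophage markers were also higher at P25. Of 12 macrophage genes, 9 were called higher at P25 in WT and 11 in KO, and their sum went from 77.7 to 131 CPM at E14 to 264 to 310.5 CPM at P25 in WT and from 63.9 to 79.2 CPM to 228 to 311.6 CPM in KO. The 4 B cell markers summed to at most 0.596 CPM at E14 and to between 3.03 and 5.75 CPM at P25. The 6 neutrophil markers, of which 3 were at 0 in every library of each E14 group, summed to at most 3.87 CPM. Within P25 WT, replicate 3 was lowest for both Pirb (1.11 CPM) and the macrophage sum (264 CPM). Replicate 4 had the highest sum, 310.5 CPM, but Pirb at 1.16 CPM. Within P25 KO, replicate 2 had the lowest Pirb level, 0.517 CPM, with a sum of 286.5 CPM. Replicate 4 had the lowest sum, 228 CPM, with Pirb at 1.07 CPM. The part of these cells in the difference of Pirb between stages was not tested.

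S1pr2 encodes the G protein-coupled receptor for the Nogo-A-specific stretch, which signals to RhoA through G proteins. It lies on chromosome 9 from 20962361 to 20976781. WT libraries read 15.3, 22.1, 12.5 and 13.98 CPM at E14 and 8.74, 10.9, 7.25 and 9.08 CPM at P25. KO libraries read 7.96, 12.6, 17.1 and 15.9 CPM at E14 and 7.16, 7.37, 9.17 and 6.90 CPM at P25. The stages did not overlap in WT, but E14 KO replicate 1, at 7.96 CPM, lay within the P25 KO range. The log2 fold change was -0.83 in WT (SE 0.24, adjusted p = 0.00548) and -0.81 in KO (SE 0.24, adjusted p = 0.00688).

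Tspan3, the co-receptor gene of that pair, was not called between the stages. It lies on chromosome 9 from 56131725 to 56165477. It read 165 ± 7.18 CPM (SD, n = 4) in E14 WT and 144 ± 14.4 in E14 KO, and 176 ± 33.7 in P25 WT and 157 ± 18.5 in P25 KO. The groups overlapped in all 4 comparisons. The log2 fold change between stages was 0.09 in WT (95% interval -0.23 to 0.42, adjusted p = 0.619) and 0.12 in KO (-0.20 to 0.45, adjusted p = 0.501). The WT interval allows changes from 1.17-fold lower to 1.33-fold higher.

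Lingo1 encodes the leucine-rich repeat co-receptor of NgR1, a neuronal membrane protein. It lies on chromosome 9 from 56618475 to 56796468. WT libraries read 171, 303, 196 and 165 CPM at E14 and 140, 115, 151 and 123 CPM at P25, and KO libraries read 171, 207, 168 and 172 CPM and then 150.2, 135, 122 and 146 CPM. P25 libraries lay below E14 libraries in both genotypes. The fall was called in WT, at -0.66 on the log2 scale (SE 0.18, edgeR adjusted p = 0.00374), and missed the threshold in KO at -0.38 (SE 0.18, adjusted p = 0.0777). Without E14 WT replicate 2 the WT change was -0.42 (adjusted p = 0.00934) and the KO change was called (-0.38, adjusted p = 0.0119). The test of the difference between the genotypes' changes gave 0.28 (SE 0.25, adjusted p = 0.993).

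Tnfrsf19 encodes TROY, a member of the tumour necrosis factor receptor family that can stand in for p75NTR in the complex. The gene is on chromosome 14 from 60963875 to 61046490. WT libraries read 2.20, 1.83, 1.82 and 2.63 CPM at E14 and 4.31, 3.79, 4.05 and 3.40 CPM at P25, a rise of 0.87 on the log2 scale (SE 0.32, edgeR adjusted p = 0.0254). KO libraries read 2.02, 3.41, 3.67 and 3.52 CPM at E14 and 5.52, 5.09, 6.57 and 1.83 CPM at P25. P25 KO replicate 4 was thus lower than every other KO library, and the KO change of 0.58 was not called (SE 0.31, adjusted p = 0.117). Without that library it was 0.88 (adjusted p = 0.00802), and without P25 WT replicate 1 the WT change was 0.82 and no longer called (adjusted p = 0.0571).

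Omg encodes OMgp, a lipid-anchored ligand of NgR1 made by neurons and oligodendrocytes. It is a gene of 2 exons on chromosome 11 from 79500982 to 79504084, inside Nf1 and on the opposite strand. The E14 WT libraries held 5, 0, 2 and 1 counts and the E14 KO libraries 0, 3, 0 and 1 counts. At P25 the WT libraries held 419, 382, 444 and 499 counts (16.9, 16.1, 15.9 and 19.3 CPM) and the KO libraries 435, 349, 275 and 505 counts (17.9, 15.04, 12.55 and 20.04 CPM). Every P25 library held far more counts than any E14 library, with a scaled ratio of P25 to E14 counts of 167 in WT (95% counting interval 84.8 to 389) and 312 in KO (122 to 1145). These rest on 8 and 4 counts at E14. The fitted log2 difference was 7.32 in WT and 8.24 without E14 WT replicate 1, and 8.14 in KO and 9.43 without E14 KO replicate 2. How strand was set in quantification is not given in the sources used here. Nf1 itself read 80.5 ± 27.1 and 70.6 ± 35.4 CPM (SD, n = 4) in E14 WT and KO, where Omg was near 0, and 84.2 ± 26.1 and 99.4 ± 16.1 CPM at P25.

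Myelin genes were also higher at P25. The 8 markers of myelinating Schwann cells summed to 433 to 600 CPM at E14 and 22120 to 44440 CPM at P25, and all 8 were called higher in both genotypes. Oligodendrocyte markers, which a piece of central nerve root would carry, summed over 7 genes to at most 0.183 CPM at E14 and to between 1.58 and 105 CPM at P25. Of these 7 genes, 3 were at 0 in all E14 WT libraries and 6 in all E14 KO libraries. Within P25 WT, Omg and the oligodendrocyte sum ranked alike, from replicate 3 (15.9 and 1.58 CPM) through replicates 2 (16.1 and 21.6 CPM) and 1 (16.9 and 70.1 CPM) to replicate 4 (19.3 and 90.5 CPM). The Omg levels of replicates 3, 2 and 1 lay close together, at 444, 382 and 419 counts, so their order is not fixed. Within P25 KO, replicate 3 had the highest sum, 105 CPM, and the lowest Omg level, 12.55 CPM, and replicate 4 the lowest sum, 44.5 CPM, and the highest Omg level, 20.04 CPM. The Schwann cell sum was lowest where Omg was highest in each genotype, at 28320 CPM in WT replicate 4 and 22120 CPM in KO replicate 4. The part of oligodendrocytes and of Schwann cells in the level of Omg was not tested.

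Over the 16 libraries the genes most like Omg by Pearson correlation of log2 CPM were Chrna6 (r = 0.998), the neurofilament gene Nefh (0.998) and Tmod1 (0.997), a description set mainly by the gap between the stages. Nefh read 94.97 ± 6.90 CPM in E14 WT and 3212 ± 120 CPM in P25 WT, and 94.1 ± 16.9 and 2836 ± 301 CPM in KO (SD, n = 4).

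**Figure D2:**
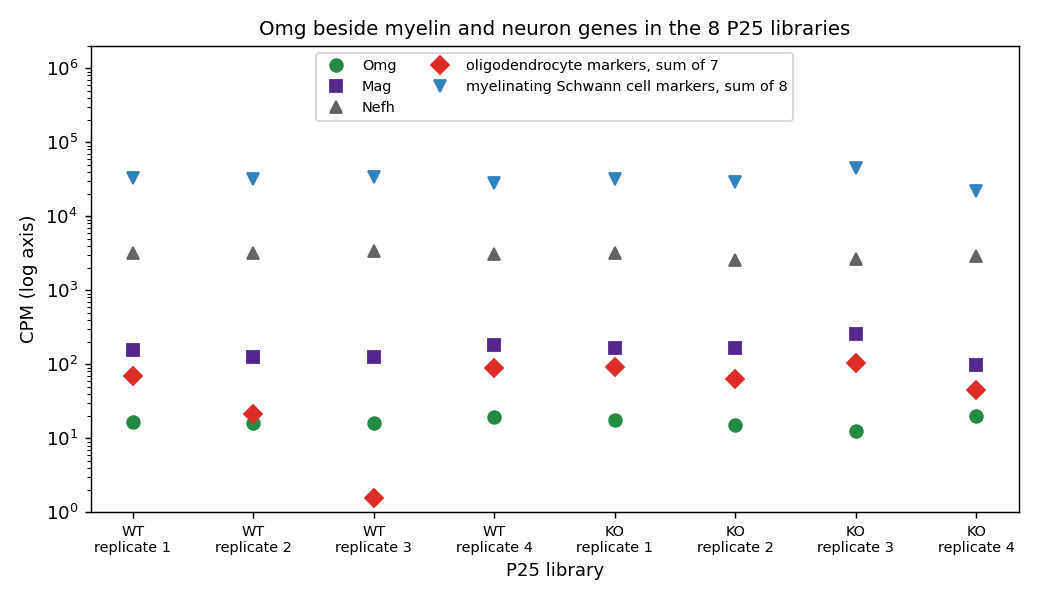
Levels in CPM (vertical log axis) of Omg, Mag and Nefh and the summed levels of 7 oligodendrocyte and 8 myelinating Schwann cell markers in each of the 8 P25 libraries (horizontal axis). Omg lies between 12.55 and 20.04 CPM and the oligodendrocyte sum between 1.58 and 105 CPM. The 2 rank alike over the 4 WT libraries, where most Omg levels lie too close together for their order to be fixed. They do not rank alike over the 4 KO libraries, where the library with the highest sum has the lowest Omg level.

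Counted over the set, 8 of the 9 genes were called between stages in WT, 3 higher and 5 lower, where 59.6% of all tested genes were called, 29.7% higher and 29.8% lower. In KO 6 of 9 were called, 2 higher and 4 lower, where 59.8% of all genes were called, 30.6% higher and 29.2% lower. These counts include Pirb and Omg. Of the other 7 genes, 6 were called in WT, 1 higher and 5 lower, and 4 in KO, all lower. With a change of at least 2-fold also required, 3 genes were left in WT (Rtn4rl2, Pirb and Omg) and 2 in KO (Pirb and Omg), beside 38.5% and 38.9% of all genes. Without E14 WT replicate 2 the WT count was 2, Rtn4rl2 having dropped out. Leaving out Pirb and Omg instead, 1 of the other 7 genes was left in WT and 0 in KO. Groups did not overlap for 8 genes in WT and 6 in KO, beside 50.2% and 59.8% of all genes. Both counts include Pirb and Omg, for which this adds nothing. The others were Rtn4r, Rtn4rl2, Rtn4rl1 and Lingo1 in both genotypes, and S1pr2 and Tnfrsf19 in WT only. The median log2 fold change was -0.66 in WT and -0.38 in KO, against 0.00031 and 0.011 over all tested genes. Without E14 WT replicate 2 the WT median was -0.42. Leaving out Pirb and Omg, the medians were -0.83 and -0.68, and -0.51 in WT when E14 WT replicate 2 was left out too.

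**Figure D3:**
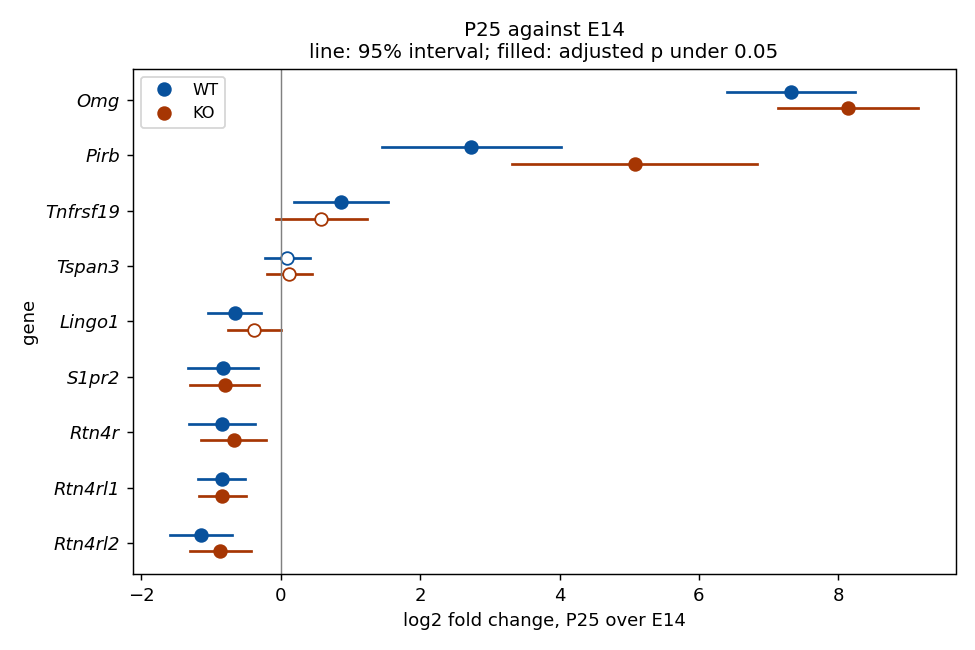
Log2 fold change from E14 to P25 (horizontal axis) of the 9 genes (vertical axis) in WT and KO, with 95% intervals as lines and called genes as filled points. Omg and Pirb lie to the right, Tspan3 spans 0, and Lingo1, S1pr2 and the 3 Nogo receptor family genes lie to the left of 0.

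Levels per kilobase of transcript, which allow genes to be set beside each other, ordered the set at E14 in WT as Tspan3 at 129 CPM per kilobase, Lingo1 at 68.7, Rtn4rl2 at 57.3, Rtn4rl1 at 47.9, Rtn4r at 15.98, S1pr2 at 2.50, Tnfrsf19 at 0.816, and Pirb and Omg at 0.0450 and 0.0434. The ranges of Lingo1, Rtn4rl2 and Rtn4rl1 overlapped, as did those of Pirb and Omg, so their order is not fixed beyond the spread. At P25 in WT, Tspan3 stood at 138 CPM per kilobase, Lingo1 at 43.5, Rtn4rl1 at 26.6, Rtn4rl2 at 25.9, Rtn4r at 8.88, Omg at 7.65, Tnfrsf19 at 1.497, S1pr2 at 1.41 and Pirb at 0.329. The ranges of Rtn4rl1 and Rtn4rl2, of Rtn4r and Omg, and of Tnfrsf19 and S1pr2 overlapped there. Lengths were medians over coding transcripts in a GRCm38 annotation. The single Rtn4rl2 model holds almost only coding sequence, so its level per kilobase may be too high, and with the union of all exons Lingo1 stood at 49.1 CPM per kilobase at E14 in WT, below Rtn4rl2.

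Between the genotypes no gene of the set was called at either stage by edgeR, where 0.0199% of all genes were called at E14 and 0.0463% at P25. At an unadjusted p under 0.05 there was 1 gene at E14, Pirb, and 0 at P25, beside 4.86% and 1.87% of all genes. DESeq2 called 0 of the set at both stages, and 6 and 17 of all genes. Pirb had 15 counts in the E14 WT group and 2 in the E14 KO group, a scaled ratio of 7.20 with an exact counting interval of 1.67 to 64.8 (edgeR unadjusted p = 0.0221, adjusted p = 0.942). WT replicates 2 and 3, with 1 and 0 counts, overlapped the KO libraries. The macrophage sums, 77.7 to 131 CPM in E14 WT and 63.9 to 79.2 CPM in E14 KO, overlapped too, and 0 of the 12 macrophage genes were called. The part of macrophages in this difference of Pirb was not tested. No gene of the set had groups that did not overlap at either stage, beside 1.63% of all genes at E14 and 3.32% at P25.

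The intervals show how large a genotype difference these libraries leave room for. At E14 the 95% intervals of Rtn4r, Rtn4rl2, Rtn4rl1, S1pr2, Tspan3 and Lingo1 ran no lower than 0.595-fold and no higher than 1.29-fold in KO relative to WT. At P25 those of the same genes and Omg ran no lower than 0.602-fold and no higher than 1.57-fold. Tnfrsf19 had log2 fold changes of 0.57 at E14 (95% interval -0.11 to 1.25) and 0.29 at P25 (-0.36 to 0.93), the latter 0.56 without P25 KO replicate 4 and 0.089 without P25 KO replicate 3, with means of 2.12 ± 0.383 and 3.16 ± 0.763 CPM in E14 WT and KO. Of the 9 log2 fold changes at E14, 8 were negative, beside 56.3% over all genes. That count rested on E14 WT replicate 2, without which Rtn4r, Rtn4rl2, Rtn4rl1 and Lingo1 stood at 0.23, 0.22, 0.15 and 0.017.

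**Figure D4:**
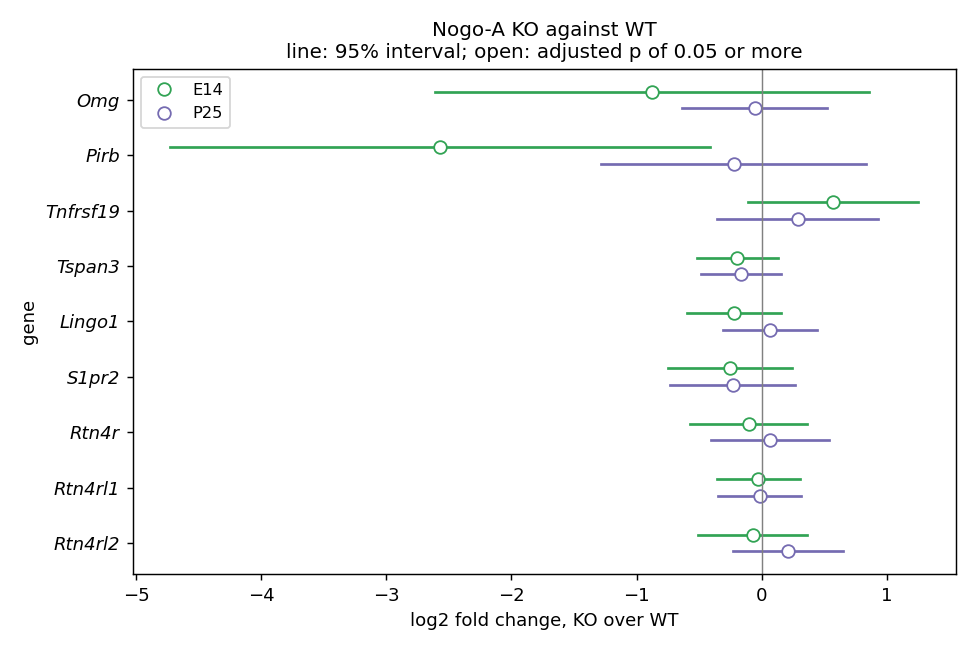
Log2 fold change of KO over WT (horizontal axis) of the 9 genes (vertical axis) at E14 and P25, with 95% intervals as lines and open points for genes that were not called. All intervals span 0 apart from that of Pirb at E14, which rests on 15 counts in WT and 2 in KO.

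The change from E14 to P25 was compared between genotypes by the interaction term, for which 0 of the 9 genes and 0% of all genes were called by edgeR. At an unadjusted p under 0.05 there were 0 genes of the set and 647 of all genes, and DESeq2 called 0 of the set and 8 of all. The term was 2.34 for Pirb (SE 1.16, adjusted p = 0.993), 0.82 for Omg (SE 0.87), 0.28 for Rtn4rl2 (SE 0.30) and 0.012 for Rtn4rl1 (SE 0.23). Its 95% interval for Rtn4rl1 ran from 0.728-fold to 1.40-fold.

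Within groups, some pairs of the 9 genes varied together and others did not. After the group means were removed, 17 of the 36 pairs correlated negatively over 16 libraries, and the correlation was 0.825 between Rtn4rl1 and Lingo1, 0.796 between Rtn4r and Lingo1 and 0.683 between Rtn4r and Rtn4rl2. Without E14 WT replicate 2 these were 0.485, 0.388 and 0.136 over 15 libraries, 18 pairs were negative, and Rtn4rl2 with Tspan3 stood at -0.80 and S1pr2 with Rtn4rl1 at -0.56. By the same measure over 16 libraries, Lingo1 was most like Ntng2 (r = 0.975), Rtn4rl2 most like Map7d1 (0.987), Rtn4r most like Plppr2 (0.970), and Tnfrsf19 most like Ccn1 (0.884). The points share libraries and depth, so these values are a description only.

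Around the set, 34 other genes of the pathway were followed, listed by role, and all were tested. In WT 19 were called between stages, 13 higher and 6 lower, and in KO 23, 17 higher and 6 lower. These are 55.9% and 67.6% of the list, beside 59.6% and 59.8% of all tested genes. Among them Lingo4 and Tnfsf13b passed the low-count filter only through P25 libraries, and without both 17 of 32 were called in WT and 21 of 32 in KO. None was called between genotypes at either stage or for the interaction, where Sphk1 and Ptpn6 at E14 and Rock2 for the interaction had an unadjusted p under 0.05.

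Of 6 other ligand genes, 3 were called higher (with Tnfsf13b) and 1 lower in each genotype. Mag, which encodes the myelin-associated glycoprotein, rose from 8.63 ± 2.04 to 148 ± 26.1 CPM in WT (log2 fold change 4.10, SE 0.27, adjusted p = 1.12e-10) and from 9.04 ± 1.56 to 171 ± 64.8 CPM in KO (4.24, SE 0.27). The lowest P25 library, at 97.0 CPM, lay far above the highest E14 library, at 11.2 CPM. Olfm1, which encodes a secreted protein that binds NgR1, fell from 784 ± 160 to 324 ± 23.9 CPM in WT, with log2 fold changes of -1.27 in WT and -1.28 in KO. Rtn4 itself was not called, at 0.44 in WT (adjusted p = 0.158) and 0.30 in KO (adjusted p = 0.33).

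Of the 4 further co-receptor and partner genes, Ngfr, which encodes p75NTR, was not called between stages, at 1018 ± 251 and 969 ± 37.9 CPM in E14 WT and KO and 916 ± 127 and 1021 ± 64.7 CPM at P25. Its stage interval in WT was -0.49 to 0.19 on the log2 scale. Cntnap1, which encodes the axonal paranode protein Caspr, rose with log2 fold changes of 2.58 in WT and 2.68 in KO, and Egfr fell (-1.19 and -0.996). Crtac1, which encodes the NgR1 antagonist LOTUS, rose (0.84 in WT, adjusted p = 0.00207, and 0.74 in KO, adjusted p = 0.0057), from 39.9 ± 13.5 to 71.5 ± 15.3 CPM in WT.

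Of the Lingo1 paralogues, Lingo4 passed the low-count filter only through P25 libraries and is given by its counts. It had 1 count in E14 WT and 340 in P25 WT, a scaled ratio of 261 with an exact counting interval of 46.6 to 10348, and 2 and 469 counts in KO, a ratio of 187 (51.5 to 1548). Lingo3 rose, with log2 fold changes of 1.41 and 1.64, and Lingo2 was not called (0.32 and -0.12). S1pr3, another receptor for sphingosine-1-phosphate, rose with log2 fold changes of 1.85 in WT (adjusted p = 2.16e-07) and 1.80 in KO (adjusted p = 3.01e-07), against -0.83 and -0.81 for S1pr2. S1pr1 rose as well (0.94 and 0.91), while the other two receptors were not called. Of 4 genes that make, export or break down the lipid, 1 rose and 3 fell in WT, and 1 rose and 2 fell in KO. Sphk2 rose (0.73 and 0.95) and the lyase gene Sgpl1 fell (-1.19 and -0.95).

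Of 12 genes for signalling downstream of the receptors, 3 rose and 1 fell in WT, and 7 rose and 2 fell in KO, which is 33.3% and 75% of the list beside 59.6% and 59.8% of all tested genes. None of the 12 was called for the interaction, so the lists' counts do not show a difference between genotypes. Ptpn6, which encodes the phosphatase SHP-1 recruited by PirB, rose with log2 fold changes of 1.25 and 1.70. Rock2, a RhoA-activated kinase gene, rose by 1.07 in WT (adjusted p = 0.0391) and 2.37 in KO (adjusted p = 0.00015), with an interaction term that was not called (1.30, SE 0.61, adjusted p = 0.993). Kalrn, which encodes a guanine nucleotide exchange factor, fell (-1.55 and -1.03). 

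**Figure D5:**
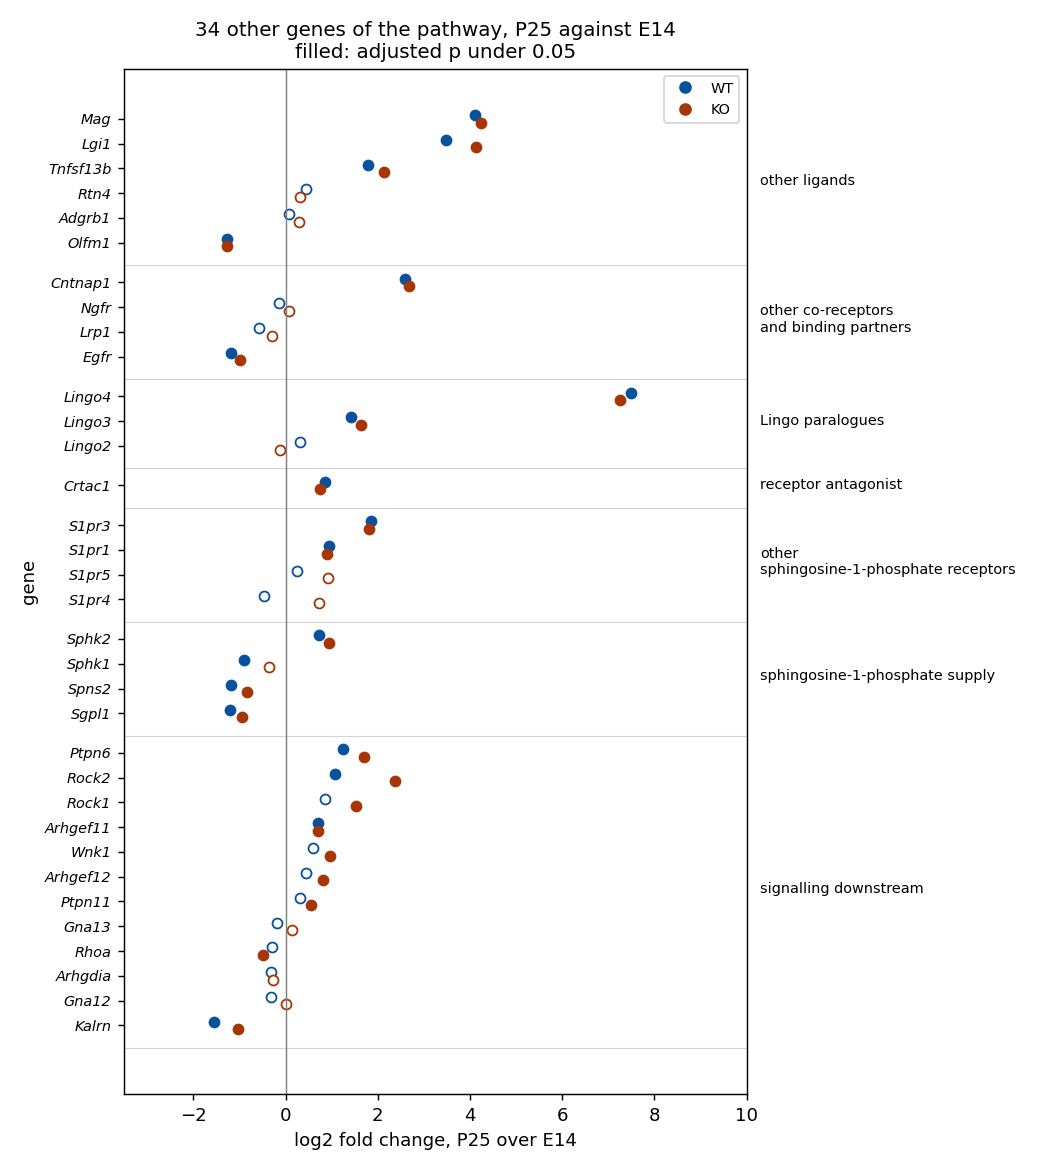
Log2 fold change from E14 to P25 (horizontal axis) of 34 other genes of the pathway, grouped by role (vertical axis), in WT and KO, with called genes as filled points. Lingo4 and Mag lie farthest to the right and Kalrn and Olfm1 farthest to the left in WT.

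Markers of several cell types changed between the stages beside the receptor genes. Satellite glia markers summed to 669 to 954 CPM at E14 and 4925 to 7648 CPM at P25, with 5 of 6 called higher in each genotype, while the 12 neuronal markers had 6 called higher and 4 lower. Of 7 endothelial markers, 6 were called lower at P25 in WT and 5 in KO, and 1 was called higher in each genotype. The endothelial sum went from 197 to 252 CPM at E14 to 63.9 to 132 CPM at P25. Of the 81 markers on 11 cell lists, 70 were tested and 0 were called between genotypes at E14 or P25 by edgeR. At an unadjusted p under 0.05 there were 8 of the 70 at E14 and 4 at P25. These are larger shares than the 4.86% and 1.87% of all tested genes. The part of cell makeup in the falls of Rtn4r, Rtn4rl2, Rtn4rl1, S1pr2 and Lingo1 was not tested.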

How the data were processed

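RNA from 16 trigeminal ganglia, 4 per group, was measured by poly(A)-selected stranded RNA-seq, per the labels' protocols. The authors deposited estimated counts per gene as whole numbers, with no normalization. Tools listed in the submitters' processing notes are kallisto 0.46, DESeq2 1.32.0 and fastp 0.20.0, with the build GRCm39. The role of each, the annotation and the strand setting were not given in the sources used here.

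The counts were tested with edgeR 4.0.16 in R 4.3.3: TMM scaling, filterByExpr over the 4 groups (15109 genes), and a quasi-likelihood fit of group means to all 16 libraries with Benjamini-Hochberg adjustment. The fit was also run on counts simulated independently from its own estimates of spread, with the outcome not given here. That run held no outlying library and no ganglia of a shared embryo, so it cannot show how the fit handles them. The 9 genes and the gene lists were chosen with earlier results of these data known. Of the pathway genes, the text names the called gene with the largest change in each direction per role and comparison at a mean of at least 1 CPM, plus Ngfr, Mag and Rtn4. Lingo2, Lingo3, S1pr1, Sphk1 and Tnfsf13b were named after their values were seen. For likeness, the genes with the highest Pearson correlation of log2(CPM + 0.5) are named.

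Positions and lengths came from a GRCm38 annotation, not the build of the processing notes. Intervals on ratios of counts are exact at 95% and cover counting error only. P-values measure the spread between ganglia, some of which may share an animal. Alternatives were DESeq2 1.42.0, other scalings and filters, a replicate block, only the compared groups, same-numbered E14 ganglia summed, and each library left out in turn.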

Additional observations from a re-analysis of the deposited data

Results flagged for a closer look

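Within 4 of the 36 combinations of gene and group, 1 library stood far from the other 3 by Dixon's criterion, which chance alone flags in about 1 of 20 groups. Rtn4r read 50.4 CPM in E14 WT replicate 2, where the next library read 26.7 CPM. Lingo1 read 207 CPM in E14 KO replicate 2, where the next read 172 CPM. Tnfrsf19 read 2.02 CPM in E14 KO replicate 1, where the next read 3.41 CPM. Pirb read 0.0952 CPM, from 2 counts, in E14 KO replicate 4 and 0 in the other 3 libraries. The criterion flags any such pattern whatever the value, so the rate of 1 in 20 does not hold for it.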

How the results depend on the processing

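Calls between stages within the set held under the alternatives run, apart from Lingo1 in KO, called with library totals alone (-0.41), only the compared groups (-0.35) and summed ganglia (-0.40), and the leave-one-out changes of Lingo1 and Tnfrsf19 given above. With 1 library left out, 7 to 8 genes of the set were called between stages in WT and 6 to 7 in KO, and 2 to 4 and 2 of them changed at least 2-fold. These counts include Pirb and Omg, for which a test between stages adds nothing. Between genotypes and for the interaction, 0 of the set were called under every alternative. Over all genes, calls at E14 were 3, against 6 with DESeq2 and 1 to 5 with 1 library left out. At P25 they were 7 (42.9% higher), against 17 with DESeq2 (70.6% higher), 3 with only the compared groups, 11 with summed ganglia (63.6% higher), and 3 to 14 with 1 library left out. For the interaction they were 0, against 8 with DESeq2 and 0 to 7 with 1 library left out. The cause of these shifts was not tested.

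Some log2 values that were not called changed sign. At E14, Rtn4r was 0.035 and Rtn4rl1 0.086 with summed ganglia, and Rtn4rl1 was 0.0086 without a filter and 0.0098 with a stricter one. At P25, Rtn4rl1 was 0.028 with library totals alone. For the interaction, Rtn4rl1 was -0.023, -0.018 and -0.10, and S1pr2 -0.013, -0.0086 and -0.12, without a filter, with a stricter one and with summed ganglia, and Tspan3 was -0.041 with summed ganglia. With 1 library left out, the E14 ranges were -0.27 to 0.017 for Lingo1, -2.11 to 0.018 for Omg, -0.19 to 0.23 for Rtn4r, -0.057 to 0.15 for Rtn4rl1 and -0.16 to 0.22 for Rtn4rl2. The P25 ranges were -0.17 to 0.051 for Omg, -0.49 to 0.0082 for Pirb, -0.054 to 0.19 for Rtn4r and -0.066 to 0.029 for Rtn4rl1. The interaction ranges were -0.072 to 2.06 for Omg, -0.17 to 0.29 for Rtn4r, -0.17 to 0.045 for Rtn4rl1, -0.0084 to 0.36 for Rtn4rl2, -0.17 to 0.13 for S1pr2 and -0.044 to 0.15 for Tspan3. The stage range of Tspan3 in WT was -0.028 to 0.18.

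With replicate number as a block, all-gene calls were 2 at E14, 3 at P25, 8679 between stages in WT and 8744 in KO, and 8 and 6 genes of the set stayed called between stages. Correlations of libraries with the same replicate number ran from -0.471 to 0.271 over the 4 comparisons, and at most 1 of 4 numbers was best matched by its own. Replicate numbers are not the numbers in the library names, and these values cannot show whether libraries share a litter, day or batch. The deviations of the possible left and right ganglia correlated at -0.859 in WT and -0.29 in KO. Deviations within 1 group of 4 sum to 0 and so lean to negative correlations, and the WT pair includes E14 WT replicate 2, which stood apart. These values therefore cannot show whether the ganglia share an embryo.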
